A study of Mus musculus with 6 samples.

Results

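Splicing of nuclear RNA depends on RNA-binding proteins that mark exons and introns for the spliceosome. SR proteins carry RNA-recognition motifs and a tail rich in arginine and serine, and mostly favour the use of the exons they bind. Heterogeneous nuclear ribonucleoproteins (hnRNPs) coat nascent RNA and often act against exon use, and many also take part in RNA export, stability and translation. The serine/arginine repetitive matrix proteins (SRRM) are large relatives of the SR proteins: Srrm1 is a splicing coactivator and Srrm2 a scaffold of nuclear speckles, the storage sites of splicing factors. Many SR and hnRNP genes limit their own output by including exons that expose the transcript to nonsense-mediated decay, a step that values per gene cannot show.

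The genes described here are all symbols present in both deposited expression tables that begin with Srsf and a number, with Hnrnp, or with Srrm and a digit. There were 36 of them among 24067 shared symbols: 20 hnRNP genes, 11 SR genes and 5 symbols of the SRRM type, of which Srrm4os is named as the opposite-strand RNA of Srrm4. They were measured in 4 mouse libraries of polyadenylated RNA from adult muscle satellite cells, the stem cells of skeletal muscle. The libraries were activated satellite cells (ASC, cultured for 36 h) labelled Yy1 iKO, WT ASC, freshly isolated satellite cells (FISC) labelled Yy1 iKO, and WT FISC. YY1 is a zinc finger transcription factor. In addition, YY1 chromatin immunoprecipitation and its input came from ASC labelled C57. The growth medium in the labels is F10 with 20% serum. The sources used here do not give the allele, the driver and the inducer of the knockout, the animals' age or the number of animals behind a library. Each group held 1 library, so the differences below have no replicate check, no error and no p-value, and calls rest on a rule of size.

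Yy1 itself stood at 2.03 FPKM in the iKO and 55.2 FPKM in the WT library of ASC, and at 20.1 FPKM in the iKO and 51.0 FPKM in the WT library of FISC. FPKM are fragment counts divided by transcript length and library depth, so levels of different genes can be compared per length. Total depth is unknown, but the steps between low values put the ASC iKO library at 0.664 reads per read of its WT partner, shared by 189 of 1573 low genes, and the FISC iKO library at 1.0, shared by 353 of 1542. The microRNA gene Mir762 took 39.8% of the FPKM sum of the ASC iKO library and was at 0 in the other 3. Without small RNAs the FPKM sum was 746895 in iKO and 502492 in WT ASC, and 528088 in iKO and 542447 in WT FISC. All 8 satellite cell markers were above 0 in every library, with summed levels of 440 (iKO) and 516 FPKM (WT) in ASC and of 2094 (iKO) and 2437 FPKM (WT) in FISC. Among them, Pax7 stood at 6.19 FPKM in iKO and 28.3 FPKM in WT ASC, while Sdc4 was the only one higher in iKO ASC, at 237 and 180 FPKM. In FISC, Pax7 (78.3 FPKM in iKO and 61.8 in WT), Myf5 and Calcr were higher in iKO. The other satellite cell markers were lower there, among them Sdc4 (1190 FPKM in iKO and 1401 in WT), which made up much of the FISC sums. The 5 immune markers summed to 14.9 (iKO) and 4.22 FPKM (WT) in ASC, with the defining marker Ptprc at 0 in both, and to 6.69 (iKO) and 7.01 FPKM (WT) in FISC. The 4 fibroblast markers summed to 6.71 (iKO) and 9.63 FPKM (WT) in ASC, and to 191 (iKO) and 178 FPKM (WT) in FISC. The 4 pericyte markers summed to 22.4 (iKO) and 37.9 FPKM (WT) in ASC, and to 88.5 (iKO) and 90.9 FPKM (WT) in FISC. The 4 measured erythroid markers were all at 0 in both ASC libraries and summed to 492 (iKO) and 383 FPKM (WT) in FISC. Of the 2 measured myoblast markers, Myod1 stood at 598 (iKO) and 698 FPKM (WT) in ASC, and at 558 (iKO) and 411 FPKM (WT) in FISC. The differentiation marker Myog was listed at 0 in both ASC libraries, and at 9.55 (iKO) and 8.28 FPKM (WT) in FISC. In bulk RNA, fewer cells of a type and less RNA per cell cannot be told apart. The part of these differences in the results below was not tested.

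A motif of YY1 was searched in the promoter windows of RefSeq (build GRCm38.p6), which run from 250 bases before to 50 bases after each start site and were found for 33 of the 36 genes. The motif was AANATGGC on either strand, read as GCCATNTT on the other. It occurred in 4 of the 46 windows of the set (8.70%), 8.87% of the windows of genes expressed in ASC and 6.05% of all windows. These 4 windows are shown because the strongest YY1 peaks within 2 kb of these genes lie at the start of 3 of them, together with that of Hnrnpm, which has a peak but no match. Capitals mark the match, which reads GCCATNTT along the gene's own strand in each, and the sequences run 5′ to 3′ on the minus strand, at chr7:25754710-25755009 for Hnrnpul1, chr5:99978889-99979188 for Hnrnpd, chr11:116853045-116853344 for Srsf2, chr14:52103972-52104271 for Hnrnpc and chr17:33685409-33685708 for Hnrnpm.
Hnrnpul1: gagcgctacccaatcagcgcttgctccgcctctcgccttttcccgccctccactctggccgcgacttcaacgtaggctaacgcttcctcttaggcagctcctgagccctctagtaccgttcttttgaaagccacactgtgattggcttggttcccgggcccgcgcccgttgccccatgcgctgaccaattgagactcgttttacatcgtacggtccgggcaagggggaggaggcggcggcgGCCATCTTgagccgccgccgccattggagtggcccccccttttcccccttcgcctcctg
Hnrnpd: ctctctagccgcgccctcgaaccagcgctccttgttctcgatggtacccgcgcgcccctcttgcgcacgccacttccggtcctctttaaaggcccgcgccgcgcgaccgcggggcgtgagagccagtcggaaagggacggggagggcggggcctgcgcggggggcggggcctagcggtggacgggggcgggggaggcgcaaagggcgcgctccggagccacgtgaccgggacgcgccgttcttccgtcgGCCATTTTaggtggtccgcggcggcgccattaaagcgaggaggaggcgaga
Srsf2: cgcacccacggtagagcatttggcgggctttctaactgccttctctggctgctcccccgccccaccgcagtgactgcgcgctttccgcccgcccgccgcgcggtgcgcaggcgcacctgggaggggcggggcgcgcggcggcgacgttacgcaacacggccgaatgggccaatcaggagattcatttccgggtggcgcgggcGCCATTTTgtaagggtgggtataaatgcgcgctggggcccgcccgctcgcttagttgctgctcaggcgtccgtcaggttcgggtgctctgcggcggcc
Hnrnpc: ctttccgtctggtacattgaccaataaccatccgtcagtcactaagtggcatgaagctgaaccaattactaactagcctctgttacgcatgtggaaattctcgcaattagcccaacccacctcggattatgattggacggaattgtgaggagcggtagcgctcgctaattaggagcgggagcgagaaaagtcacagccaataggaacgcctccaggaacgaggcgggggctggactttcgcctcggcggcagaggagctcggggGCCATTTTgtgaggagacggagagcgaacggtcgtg
Hnrnpm: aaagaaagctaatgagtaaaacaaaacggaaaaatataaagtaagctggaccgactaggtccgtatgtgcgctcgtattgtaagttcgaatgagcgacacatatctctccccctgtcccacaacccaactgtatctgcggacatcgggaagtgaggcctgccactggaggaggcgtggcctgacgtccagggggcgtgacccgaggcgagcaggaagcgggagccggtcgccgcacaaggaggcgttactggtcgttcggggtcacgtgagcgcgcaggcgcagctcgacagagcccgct

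Nearly the whole set was expressed at high levels. Of 36 genes, 32 reached 1 FPKM in at least 1 library of each pair, and these same 32 stood at 1 FPKM or more in each of the 4 libraries. Their median level was 164 (iKO) and 134 FPKM (WT) in ASC, where the median of all expressed genes was 12.3 (iKO) and 13.4 FPKM (WT), and 103 (iKO) and 112 FPKM (WT) in FISC. The remaining 4 were at or near 0. Srrm4, which promotes the inclusion of very short exons in neurons, stood at 0.0819 (iKO) and 0.0542 FPKM (WT) in ASC and at 0.158 (iKO) and 0.476 FPKM (WT) in FISC. Srrm3, its relative with a like role, reached at most 0.0529 FPKM, Srsf12 at most 0.379 FPKM and Srrm4os was listed at 0 in all 4 libraries.

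The order of the levels differed between activated and fresh cells. In ASC the highest genes were Hnrnpa2b1, an RNA-binding protein of splicing and RNA transport (521 FPKM in iKO and 497 in WT), Hnrnpab (489 and 405 FPKM), Hnrnpf, which binds runs of G (469 and 368), Hnrnpk, which binds C-rich RNA (400.4 and 407), and Hnrnpu, a nuclear scaffold protein (354 and 387). In FISC the SR gene Srsf5 stood first at 530.1 FPKM in iKO and 525 in WT, followed by Hnrnpa2b1 (354 and 406) and Hnrnph1, another protein of G-runs (338 and 392). The 5 highest genes held 37.7% (iKO) and 37.9% (WT) of the summed level of the set in ASC and 40.4% (iKO) and 39.7% (WT) in FISC. Srsf4 was the lowest expressed gene of the 32 in each library, at 7.57 (iKO) and 17.1 FPKM (WT) in ASC and 14.6 (iKO) and 15.3 FPKM (WT) in FISC. As a share of the FPKM sum without small RNAs, the whole set held 0.794% in iKO and 1.08% in WT ASC, and 0.777% in iKO and 0.845% in WT FISC.

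**Figure D1:**
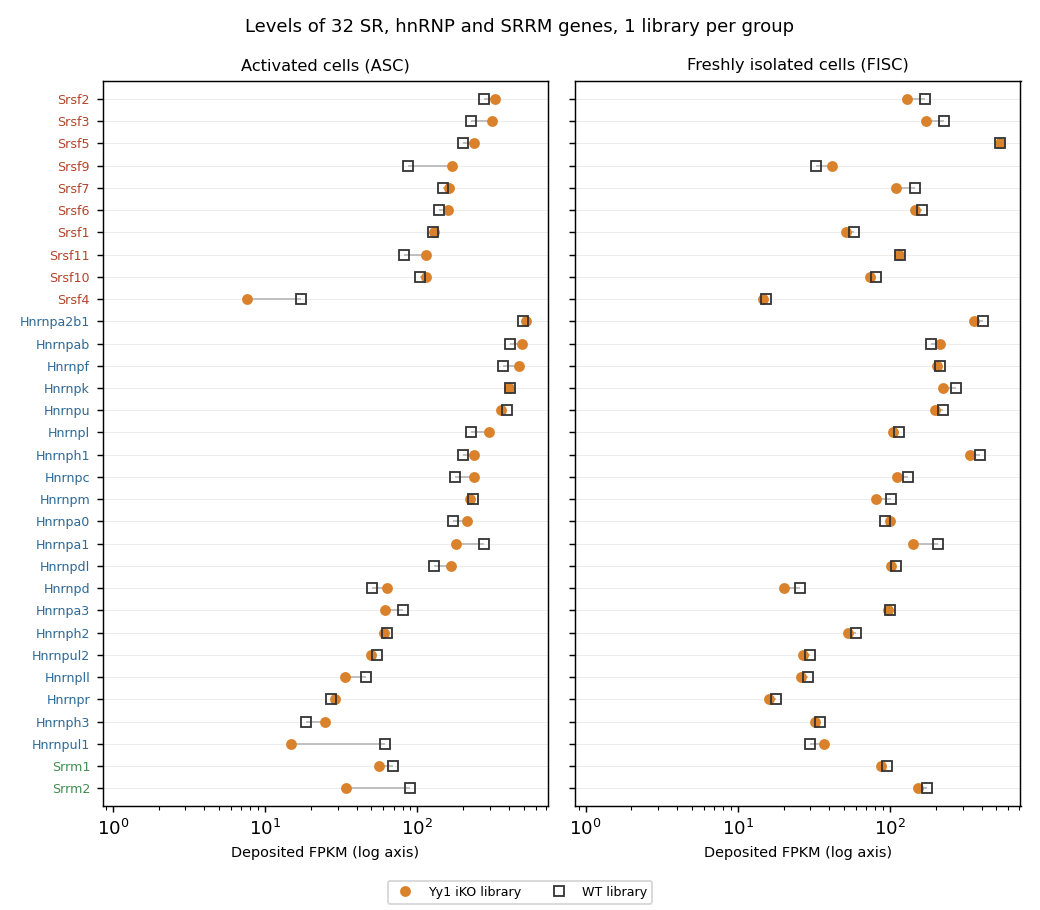
Deposited FPKM of the 32 expressed genes on a log axis, 1 row per gene, in ASC on the left and FISC on the right; filled circles are the Yy1 iKO library and open squares the WT library. The circle and square of Hnrnpul1, Srrm2 and Srsf4 lie far apart in ASC and close together in FISC, and Srsf5 is the highest gene in FISC with 530.1 (iKO) and 525 FPKM (WT).

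In activated cells labelled Yy1 iKO, most SR and hnRNP transcripts stayed within 2-fold of WT, and 3 genes were at least 2-fold lower. The rule counts a gene when the ratio of FPKM + 1 is 2 or more, among 11215 genes with at least 1 FPKM in 1 or both libraries. No SR, hnRNP or SRRM gene was at least 2-fold higher, where 8.74% of all genes were, and 3 of 32 were at least 2-fold lower, where 8.26% of all genes were. The share of lower genes was thus near that of all genes. The median log2 ratio of the set was 0.13, beside 0.00 over all genes, and 12 of 32 were below 0, beside 50.2% of all. Among the 2027 genes with a pair mean of at least 50 FPKM, a limit chosen after values were seen, the median was 0.50, 21.9% were at least 2-fold higher, 2.02% at least 2-fold lower and 23.1% below 0. The 27 splicing genes among them had a median of 0.19, with 9 below 0, none 2-fold higher and 1, Srrm2, 2-fold lower. The direction of the median rests on the scaling: it was −0.03 with upper-quartile and −0.43 with FPKM-sum scaling, which moved the median of all genes to −0.15 and −0.50.

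Hnrnpul1 was the lowest of the 32 ratios. It encodes a relative of Hnrnpu that binds RNA and takes part in RNA processing and the response to DNA damage, and lies on chromosome 7 at 26507058 to 26539739 (mm9). It stood at 14.8 FPKM in iKO and 61.5 FPKM in WT ASC, a log2 ratio of −1.98, 3.94-fold lower with 1 added to each value. In FISC it stood at 36.9 FPKM in iKO and 30.0 FPKM in WT, a log2 ratio of 0.29. The ASC iKO library was thus the lowest of the 4, and the ASC WT library the highest. Among the 3 genes that were 2-fold lower, it was the only one whose listed locus no other symbol shares. Its closest relatives did not show this size: Hnrnpul2 stood at 49.8 FPKM in iKO and 54.3 in WT ASC (−0.12), and Hnrnpu had a ratio of −0.13.

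Srrm2, the speckle scaffold (chromosome 17, 23940154 to 23966076), stood at 34.2 FPKM in iKO and 90.0 FPKM in WT ASC, a log2 ratio of −1.37. In FISC it was at 153 FPKM in iKO and 175 FPKM in WT. The tables give the same locus to Tceb2, an elongin subunit that stood at 584 FPKM in iKO and 303 in WT ASC, so that the split between them is uncertain; the sources used here do not state whether counting used the strand. Summed over the locus, the level was 618 FPKM in iKO and 393 in WT ASC. Most of that sum is Tceb2, so it follows Tceb2 and cannot show the direction of Srrm2. Srrm1, its partner in the splicing coactivator complex, was closer to WT, with 55.9 FPKM in iKO and 69.7 in WT ASC and a ratio of −0.31.

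Srsf4 (chromosome 4, 131429554 to 131475944) had a log2 ratio of −1.08 in ASC at the levels given above. Its locus is shared with Gm12992, classed as a long noncoding RNA by RefSeq, at 25.6 FPKM in iKO and 18.6 FPKM in WT ASC. The sum of both was 33.2 FPKM in iKO and 35.7 in WT, a log2 ratio of −0.10, so that the value of Srsf4 alone is uncertain. In FISC both libraries were close, with a ratio of −0.06 for Srsf4.

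The other SR genes were all above 0 in ASC, between 0.02 and 0.95. Srsf9, a small SR protein, lay highest and just inside the 2-fold limit, at 169 FPKM in iKO and 86.8 FPKM in WT, a log2 ratio of 0.95. In FISC it was at 41.7 FPKM in iKO and 32.5 in WT (0.35), also the highest ratio of the set there. Srsf11 (115 FPKM in iKO and 82.3 in WT ASC) and Srsf3, a small SR protein that also helps export RNA (308 and 227), followed with ratios of 0.47 and 0.44. Srsf2, a factor concentrated in speckles, stood at 322 FPKM in iKO and 275 in WT ASC (0.23), and Srsf1, the founding member of the family, at 129 and 128 FPKM (0.02). Srsf5 (0.23), Srsf6 (0.19), Srsf7 (0.15) and Srsf10 (0.12) lay between them. Upper-quartile scaling lowers these values by up to 0.17 and turns those of Srsf1, Srsf7 and Srsf10 below 0.

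Among the hnRNP genes other than Hnrnpul1, the ASC ratios ran from −0.61 to 0.41. Hnrnpa1, a repressor of exon inclusion, was at the low end, with 178 FPKM in iKO and 273 FPKM in WT ASC and 141 FPKM in iKO and 207 in WT FISC, ratios of −0.61 and −0.55. The tables place Gm10052 and Gm5643 at the same locus, both classed by RefSeq as transcribed pseudogenes, and the 3 symbols summed to 513 FPKM in iKO and 610.3 in WT ASC (−0.25) and to 222 in iKO and 295 in WT FISC (−0.41). Hnrnpa3 shares its locus in the same way with the pseudogene Gm6793: alone it was at 61.1 FPKM in iKO and 80.1 in WT ASC (−0.39), and with Gm6793 at 689 and 606 FPKM (0.18). Values of Hnrnpa1 and Hnrnpa3 are therefore uncertain. Hnrnpll, a regulator of alternative exons in lymphocytes, stood at 33.6 FPKM in iKO and 46.2 in WT ASC (−0.45), while its relative Hnrnpl, which binds CA repeats, stood at 295 and 226 FPKM (0.38). Hnrnpc, which binds runs of U, was at 235 FPKM in iKO and 176 in WT ASC (0.41), the highest ratio of the family. Hnrnph3 (0.40), Hnrnpdl (0.37), Hnrnpf (0.35), Hnrnpd, which binds AU-rich elements (0.32), Hnrnpa0 (0.30), Hnrnpab (0.27), Hnrnph1 (0.24), Hnrnpr (0.08) and Hnrnpa2b1 (0.07) were also above 0, and Hnrnpk (−0.02), Hnrnpm (−0.06) and Hnrnph2 (−0.06) near it. Other symbols also share the loci of Hnrnph3, Hnrnpab and Hnrnpk, where the summed ratios in ASC were 0.32, 0.26 and −0.03.

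**Figure D2:**
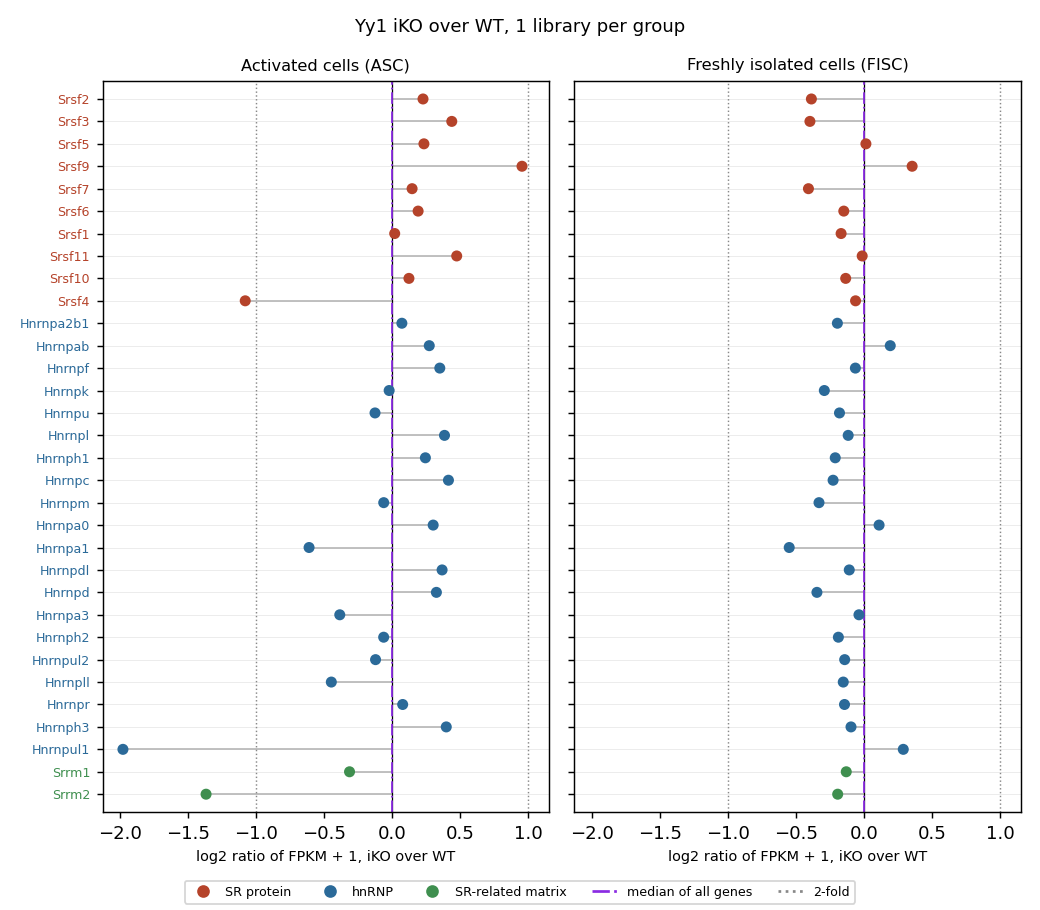
The log2 ratio of FPKM + 1, iKO over WT, for the 32 expressed genes in ASC (left) and FISC (right); dotted lines mark 2-fold and the dash-dotted line the median of all genes. Hnrnpul1, Srrm2 and Srsf4 pass the lower line in ASC, no gene passes a line in FISC, and 27 of 32 genes lie below 0 in FISC.

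In freshly isolated cells the splicing genes were slightly lower in the iKO library as a group, and none differed by 2-fold. Of all 11229 genes, 0.677% were 2-fold or more higher and 0.721% lower by that rule. The median log2 ratio of the set was −0.15, beside 0.00 over all genes, with a range from −0.55 to 0.35. A total of 27 of 32 genes were below 0, beside 50.4% of all genes and 64.3% of the 1503 genes with a pair mean of at least 50 FPKM, whose median was −0.07. Of those 1503 genes 0.599% were 2-fold or more higher and 1.2% lower, and none of the 24 splicing genes among them, 21 of which were below 0. Of the 10 SR genes 8 were below 0, and of the 20 hnRNP genes 17. The summed fibroblast and erythroid markers given above were higher in the iKO than in the WT library of FISC, but single markers went both ways. Of the fibroblast markers, Dcn (144 FPKM in iKO and 104 in WT) and Pdgfra (1.14 and 1.11) were higher in iKO. Col1a1 (42.9 and 68.6 FPKM) and Ly6a (2.70 and 3.96) were lower. Of the erythroid markers, Hba-a1, Hba-a2 and Hbb-bs were higher in iKO and Hbb-b1 (35.4 and 85.5 FPKM) lower. The part of these markers in the small differences of the set was not tested. The median of the set stayed between −0.15 and −0.10 under each alternative scaling, pseudocount, filter and locus correction that was run.

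Among the SR genes in FISC, Srsf7, which carries a zinc knuckle, stood at 109 FPKM in iKO and 145 in WT (−0.41), Srsf3 at 172 and 227 FPKM (−0.40) and Srsf2 at 130.1 and 170.5 FPKM (−0.39). Of the hnRNP genes, Hnrnpd stood at 20.0 FPKM in iKO and 25.7 in WT (−0.35), Hnrnpm at 81.1 and 102 FPKM (−0.33) and Hnrnpk at 221 and 271 FPKM (−0.29). Above 0 were Srsf9, Hnrnpul1, Hnrnpab (214 FPKM in iKO and 187 in WT, 0.19), Hnrnpa0 (101 and 93.2 FPKM, 0.11) and Srsf5 (0.01). The ASC ratio minus the FISC ratio had a median of 0.26 over the set and of 0.02 over all genes, and 25 of 32 differences were above 0. That median was 0.04 with upper-quartile scaling, 0.02 with ratios centred on the genes of like locus length and −0.34 with FPKM-sum scaling.

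Over all genes the ASC ratio was lower the longer the listed locus, and the splicing genes are short. Their loci ran from 2.68 to 46.4 kb with a median of 12.6 kb, against 24.5 kb for all genes expressed in ASC, and none lay in the 3 longest length deciles. Between ratio and log10 locus length, Pearson's r was −0.35 and Spearman's rho −0.21 across the 32 genes, and −0.40 and −0.44 across all 11215 genes. Genes are not independent replicates and share the same libraries. After subtraction of the median of its length decile, the set had a median of −0.17 in ASC, with 20 of 32 genes below 0. On that scale Hnrnpul1 was at −1.97, Srrm2 at −1.36, Hnrnpa1 at −1.0, Srsf4 at −0.91 and Srsf9 at 0.56. The direction of the set in ASC thus differs between the deposited and the length-centred values.

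**Figure D3:**
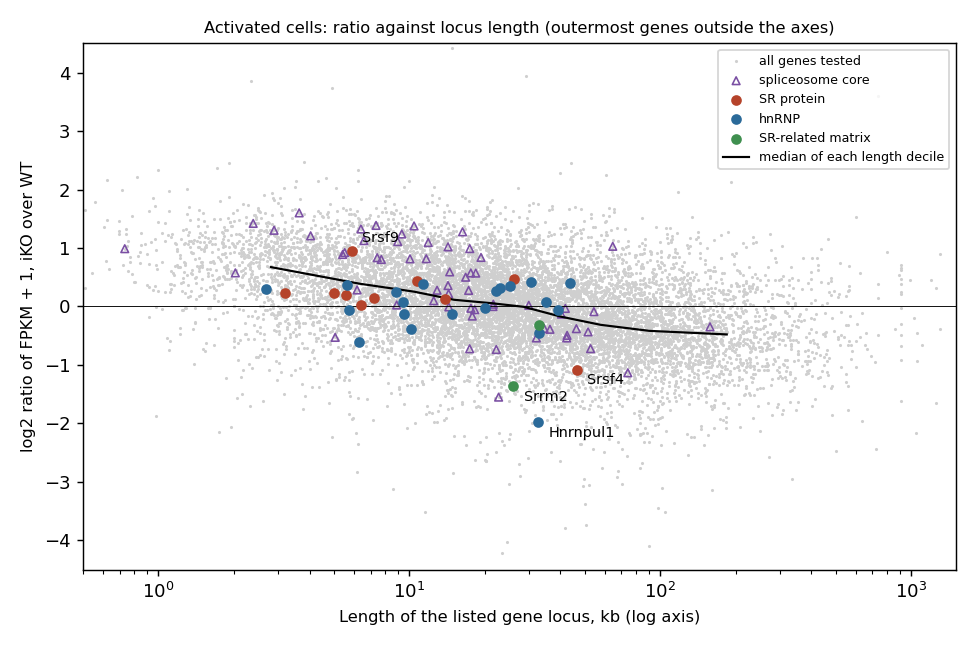
The ASC log2 ratio of FPKM + 1, iKO over WT, against the length of the listed locus in kb on a log axis; grey points are genes with at least 1 FPKM, coloured points the splicing genes by family, triangles the spliceosome core, and the line joins the medians of 10 length deciles. The line runs from 0.67 in the shortest to −0.48 in the longest decile; Hnrnpul1 and Srrm2 lie well under it, and 31 genes lie outside the axes.

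Of the related lists of splicing genes, the spliceosome core, also the longest, had the most genes past 2-fold in ASC. In that list 14 of 60 genes were at least 2-fold higher in iKO, with a median of 0.32. So were 8.74% of all genes, and 21.9% of those with a pair mean of at least 50 FPKM. At least 2-fold lower were 2 core genes, beside 8.26% of all genes and 2.02% of those at that level. The higher genes were members of the Sm and LSm rings and other small proteins of the snRNPs, the RNA-protein particles that make up the spliceosome: Snrpg stood at 1192 FPKM in iKO and 456 in WT, Snrpd2 at 1098 and 445 FPKM and Lsm5 at 318 and 104 FPKM. The lower ones were Prpf8, the large protein at the catalytic centre, at 34.7 FPKM in iKO and 103 in WT, and Aqr. Aqr, a helicase whose listed locus another symbol shares, stood at 13.2 and 30.2 FPKM. Over these 60 genes Pearson's r between ratio and log10 locus length was −0.63 and Spearman's rho −0.70. The median was 0.19 after length centring. With FPKM-sum scaling, 164 in place of 980 of all genes were at least 2-fold higher in ASC. The core list was not recomputed with that scaling. In FISC no core gene passed 2-fold (0.677% of all genes were higher and 0.721% lower), with a median of 0.00 over 59 genes.

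The proteins that modify and import SR proteins went both ways in ASC. For the counts that follow, 8.74% of all genes were at least 2-fold higher in ASC and 8.26% at least 2-fold lower. With a pair mean of at least 50 FPKM these shares were 21.9% and 2.02%. The lists are small, so that counts of 1 or 2 genes say little about a list. Of 11 expressed kinase and import genes, Clk4, a nuclear kinase of SR proteins, was at least 2-fold higher, at 44.8 FPKM in iKO and 21.0 in WT. Tnpo1, the import receptor of several hnRNPs (18.4 FPKM in iKO and 58.4 in WT), and Prpf4b, a kinase of splicing factors (20.0 and 43.0 FPKM), were at least 2-fold lower, and the median was −0.17. Of 28 other splicing regulators 2 were at least 2-fold lower and none higher (median −0.29): Ptbp1, a repressor that binds pyrimidine tracts, at 92.4 FPKM in iKO and 217 in WT, with a locus shared by other symbols, and Rbm24, a muscle splicing factor, at 3.0 and 7.19 FPKM. The hnRNP relatives with other symbols had 1 of 14 lower, Msi2 at 16.1 FPKM in iKO and 38.8 in WT, also at a shared locus (median 0.12). The SR relatives had 1 of 25 lower, Scaf4 at 8.99 and 19.4 FPKM (median −0.06). Of 15 genes of nonsense-mediated decay, 3 were at least 2-fold higher and none lower (median −0.05). All 3 encode exon junction proteins: Magohb (127 FPKM in iKO and 40.1 in WT), Magoh (374 and 158 FPKM) and Rbm8a (112 and 51.1 FPKM). Eif4a3, another exon junction protein, was within 2-fold, at 198 and 147 FPKM (0.43). In FISC none of these genes passed 2-fold, where 0.677% of all genes were higher and 0.721% lower.

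**Figure D4:**
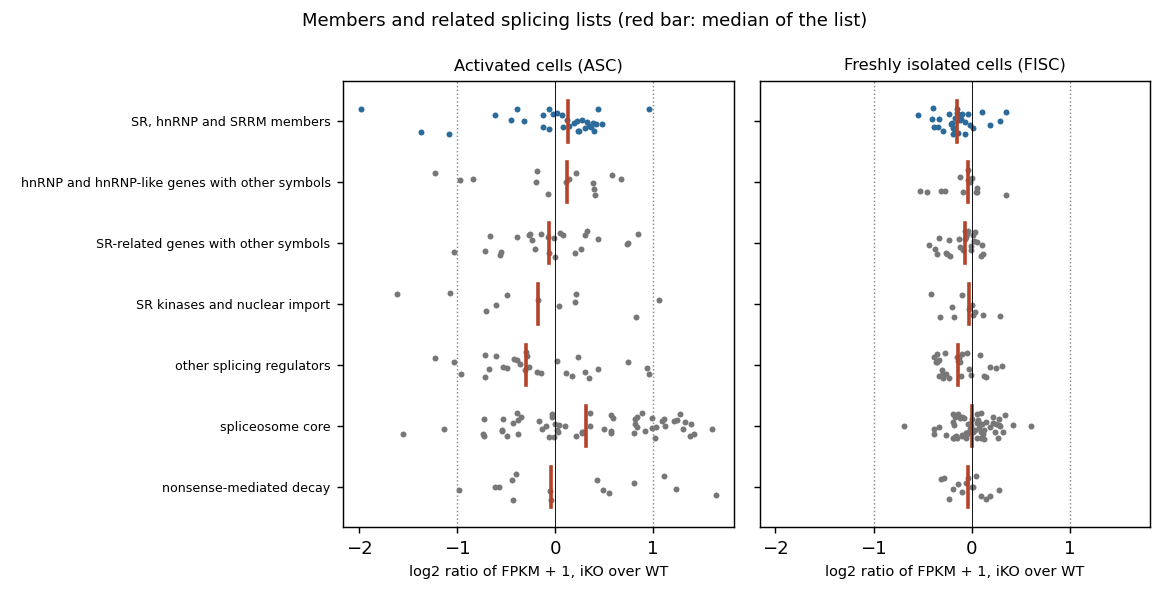
The log2 ratio of FPKM + 1, iKO over WT, in ASC (left) and FISC (right) for the 32 splicing genes (blue, top row) and 6 related lists (grey); each point is 1 gene, placed at random within its row, red bars are list medians and dotted lines mark 2-fold. The spliceosome core reaches from −1.55 to 1.60 in ASC, a wider range than in FISC.

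The order of the set differed between ASC and FISC in both genotypes. Ratios between the states are description only, because the 2 tables may have been normalized separately. Libraries were scaled to the same FPKM sum without small RNAs, and ASC was set over FISC. In the iKO libraries 2 of 32 genes were at least 2-fold higher, where 23.1% of all genes were, and 7 at least 2-fold lower, where 27.5% were, with a median of 0.16 beside −0.07 over all genes; 13 of 32 were below 0, beside 51.9% of all. In the WT libraries 7 were at least 2-fold higher (34.1% of all genes) and 1 lower (16.0%), with a median of 0.52 beside 0.50 over all genes; 8 of 32 were below 0, beside 35.4% of all. These counts rest on the scaling. From the values as deposited, 10 genes were at least 2-fold higher and 3 lower in the iKO libraries, with a median of 0.66. In the WT libraries 1 gene was at least 2-fold higher and 4 lower with upper-quartile scaling, which moved the median of all genes to 0.09. The fibroblast, pericyte and erythroid marker sums were lower in ASC than in FISC in both genotypes, and their part in these ratios was not tested. The iKO and WT activation ratios differ by the same quantities as the ASC and FISC ratios above, apart from scaling, and are not separate evidence.

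Srsf5 and Hnrnph1 left the top of the order. Srsf5 ranked 1 in both FISC libraries and 10 (iKO) and 11 (WT) in ASC, and Hnrnph1 ranked 3 in both FISC libraries and 9 (iKO) and 12 (WT) in ASC. The scaled level of Srsf5 in iKO cells was 167 in ASC against 530.1 FPKM in FISC, a log2 ratio of −1.66. In WT cells Srsf5 was at 216 in ASC against 525 FPKM in FISC, a ratio of −1.28. Srsf9 went the other way, with 119 in ASC against 41.7 FPKM in FISC in iKO cells and 93.7 against 32.5 FPKM in WT cells, a ratio of 1.5 in both. Srsf9 in WT cells was at 0.92 with median-ratio scaling. Hnrnpd was also at least 2-fold higher in both genotypes (1.13 in iKO and 1.06 in WT), though not in WT with upper-quartile scaling (0.62). In WT cells Hnrnpm (1.28), Srsf1 (1.23), Hnrnpab (1.22), Hnrnpul1 (1.12) and Hnrnpl (1.09) passed 2-fold as well, and in iKO cells Hnrnpm stood at 0.94, Srsf1 at 0.81, Hnrnpab at 0.69 and Hnrnpl at 0.98. All 5 were within 2-fold in WT cells with upper-quartile scaling, from 0.64 for Hnrnpl to 0.84 for Hnrnpm, and with median-ratio scaling. In iKO cells Srrm2 (−2.61), Hnrnpul1 (−1.72), Srsf4 (−1.30), Hnrnpa3 (−1.15), Srrm1 (−1.13) and Hnrnph1 (−1.01) were at least 2-fold lower, and in WT cells Srrm2 stood at −0.84, Srsf4 at 0.26, Hnrnpa3 at −0.21, Srrm1 at −0.34 and Hnrnph1 at −0.86. With upper-quartile scaling Srrm2 (−1.29) and Hnrnph1 (−1.30) were at least 2-fold lower in WT cells too, and Srsf4 was below 0 (−0.17). The differences between the genotypes were not tested. Hnrnpul1 had opposite directions, −1.72 in iKO and 1.12 in WT cells, and −1.79 and 0.68 with upper-quartile scaling.

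**Figure D5:**
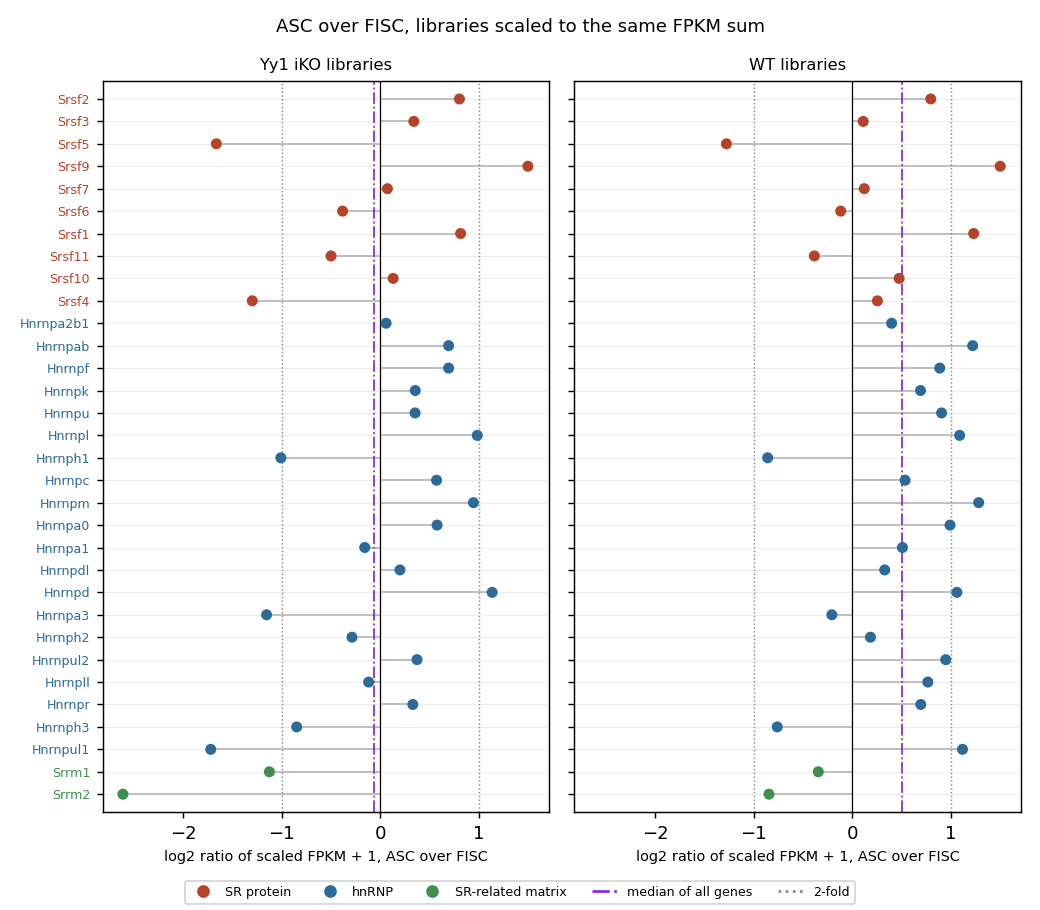
The log2 ratio of scaled FPKM + 1, ASC over FISC, in the Yy1 iKO libraries (left) and the WT libraries (right) for the 32 genes; dotted lines mark 2-fold and the dash-dotted line the median of all genes. Srsf5 lies left and Srsf9 right in both panels, and Hnrnpul1 lies at −1.72 on the left panel and 1.12 on the right.

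YY1 peaks in ASC were listed at 9 of the 36 genes, counting summits inside the listed locus or within 2 kb of it. Among the 32 expressed genes 8 had one, where 9.85% of the 11215 expressed genes did. Within 2 kb of a locus end it was 7 of 32, beside 6.21% of all expressed genes and 10.4% of those with a pair mean of at least 50 FPKM, 6 of 27 in the set. The list holds 2031 peaks called from 1 library and 1 input, and the folds and q-values are those of the authors' peak caller.

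The strongest peaks within 2 kb lay at the start of Hnrnpul1 and of Hnrnpd. With the strand taken from RefSeq, the summit at Hnrnpul1 lay 15 bases before the 5′ end of the listed locus, with a fold of 7.67 and a −log10 q of 6.60. At Hnrnpd it lay 30 bases inside the 5′ end, with the same fold and q. At Srsf2 it lay 47 bases before the 5′ end (fold 6.16, −log10 q 3.96) and at Hnrnpm 82 bases inside it (fold 5.45, −log10 q 2.08). The peak at Srrm2 lay 141 bases beyond the far end of the joint locus (fold 5.04, −log10 q 2.66), the side on which RefSeq places the start of Tceb2, there named Elob. Weaker peaks lay 681 and 864 bases inside Hnrnpa2b1 and 203 bases inside Srsf3, with a −log10 q of at most 0.329, and those of Hnrnpk and Srrm3 lay deep inside the locus. With a −log10 q of at least 5, peaks were left at Hnrnpul1 and Hnrnpd. Peaks of like strength lay outside the 2 kb limit, at 2948 bases from Hnrnpl (fold 8.94, −log10 q 9.60) and 9429 bases from Hnrnpu (fold 7.23, −log10 q 5.39).

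In the windows printed above, the match starts 9 bases before the RefSeq start site of Hnrnpul1, 1 before that of Hnrnpd, 48 before that of Srsf2, and at base 15 after that of Hnrnpc. RefSeq starts and the ends of the deposited loci come from different builds and annotations, so these distances and those of the peaks were not converted into each other. Of the 4 genes with a match, Hnrnpul1, Hnrnpd and Srsf2 had a peak within 2 kb of an end, and Hnrnpc had none. Of the 26 expressed genes with windows but no match, 4 had a peak. Over all expressed genes, 281 of 928 with a match had a peak (30.3%), against 278 of 7664 without one (3.63%).

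Of the 7 expressed genes of the set with a peak near a locus end, 2 were at least 2-fold lower in ASC, against 1 of the 25 without one. Of these 2, Srrm2 has its peak at the far end of the locus, on the side of the start of Tceb2, and its value is uncertain. Tceb2 itself stood at 584 FPKM in iKO and 303 in WT ASC. Hnrnpul1 (−1.98) and Srrm2 (−1.37) were at least 2-fold lower, whereas Hnrnpm (−0.06), Hnrnpa2b1 (0.07), Srsf2 (0.23), Hnrnpd (0.32) and Srsf3 (0.44) were within 2-fold, and the median of the 7 was 0.07. Hnrnpul1 and Hnrnpd had peaks of equal score and ratios of −1.98 and 0.32. Their motif matches differ in 1 base, GCCATCTT for Hnrnpul1 and GCCATTTT for Hnrnpd. Whether peak or motif bears on the ratios was not tested. Over all genes with a peak near an end, 8.03% were at least 2-fold lower and 11.5% at least 2-fold higher, against 8.27% and 8.56% of the genes without one. Of all genes with a motif match in a promoter window 11.5% were at least 2-fold lower, against 7.45% of those with windows but no match.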

How the data were processed

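The authors deposited FPKM per gene in 1 table for the ASC pair (24312 symbols) and 1 for the FISC pair (24205), per the file headers. Per the submitters' processing notes, mm9, MACS2 2.1.0, Cufflinks 2.2.1 and TopHat2 were used, in roles not stated. The sources used here do not give annotation, strand setting or scaling. Columns were matched to samples by cell state and by Wt or Ko. The deposited peak list holds the authors' score, fold, −log10 p and −log10 q per peak, and a summit offset. Ratios are log2((FPKM + 1)/(FPKM + 1)) for genes with at least 1 FPKM in 1 or both libraries, which understates low genes; 2-fold is a rule of size. The listed start counts from 0 (lengths equal RefSeq's for 8195 of 17968 genes that way, for 508 otherwise), so 1 was added. The members and lists were chosen with earlier results of these data known. Every member could be named, and of related lists the genes past 2-fold in a comparison, otherwise the 2 highest and 2 lowest. The ratio function was tested on simulated data. No column went unused. Python 3.11.15, pandas 2.3.3, numpy 2.4.6 and matplotlib 3.10.9 were used.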

Additional observations from a re-analysis of the deposited data

Results flagged for a closer look

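In 3 genes the iKO over WT ratio ran in opposite directions in the 2 states by at least 0.25 on the log2 scale on either side, a limit chosen after values were seen. The difference, ASC ratio minus FISC ratio, was −2.27 for Hnrnpul1, 0.84 for Srsf3 and 0.67 for Hnrnpd. With 1 library per group these differences were not tested. The ASC ratio of Hnrnpd was 0.16 with upper-quartile scaling, and that of Srsf3 was 0.18 when centred by locus length, both under that limit. Hnrnpul1 stayed past it on both sides under both alternatives.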

How the results depend on the processing

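Of 129 recomputed counts and medians, 100 kept their direction and stayed within 1.5 times the count or within 0.1 of the median. In ASC, the median of the set (0.13) was −0.033 with upper-quartile scaling, −0.43 with FPKM-sum scaling and −0.17 when centred by locus length. There, 1 gene was higher by the 1.5-fold rule, and 1 in place of 3 was 2-fold lower once genes with a shared locus were left out. The ASC minus FISC median (0.26) was 0.044, −0.344 and 0.016 under the same scalings and centring, in that order. For WT activation, the median (0.52) was 0.076 with upper-quartile scaling, −0.062 with median-ratio scaling, 0.41 as deposited, −0.088 centred and 0.695 without shared loci. Its count of higher genes (7) was 1 with upper-quartile scaling, 0 with median-ratio scaling, 0 centred and 15 by the 1.5-fold rule, and its count of lower genes (1) was 4 in each of these. For iKO activation, the median (0.16) was 0.66 as deposited, −0.125 centred and 0.329 without shared loci. Its count of higher genes (2) was 10 as deposited and 8 by the 1.5-fold rule, and its count of lower genes (7) was 3 as deposited and 4 without shared loci. Peaks with a −log10 q of at least 5 were left at 2 genes in place of 9. For single genes, no call reversed with a pseudocount of 0.1, upper-quartile or median-ratio scaling; 9 and 10 of 128 changed side of the 2-fold limit under these scalings, all in WT activation. The cause of these shifts was not tested. No paired analysis was possible because each group holds 1 library, and leaving out a replicate was not possible either. FPKM give no counts, so low genes have no interval.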

Other observations

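Several genes of the set are neighbours in the genome. On chromosome 5 the loci of Hnrnpd and Hnrnpdl lie 54.6 kb apart. Both were above 0 in ASC (0.32 and 0.37) and below 0 in FISC (−0.35 and −0.11). So were most genes of the set, 20 of 32 above 0 in ASC and 27 of 32 below 0 in FISC. Whether neighbours vary together was not tested. On chromosome 17 Hnrnpll and Srsf7 lie 138 kb apart, with ratios of −0.45 and 0.15 in ASC and −0.15 and −0.41 in FISC. On chromosome 13 Hnrnpa0 and Hnrnpk lie 263 kb apart, with ratios of 0.30 and −0.02 in ASC and 0.11 and −0.29 in FISC.

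The promoter windows of the set were rich in G and C, with a median GC content of 66.8% over 46 windows, beside 61.3% for windows of genes expressed in ASC and 52.7% for all windows. The kinase gene Clk1, which stood at 61.6 (iKO) and 59.8 FPKM (WT) in ASC and at 249 (iKO) and 243 FPKM (WT) in FISC, had activation ratios of −2.49 in iKO and −1.90 in WT cells.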
